A study of Rattus norvegicus with 18 samples.

Results

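Neuropeptide genes of cortical neurons, 10 in number, were followed over culture and after CHD5 depletion, namely Npy, Vip, Sst, Cck, Cort, Adcyap1, Pnoc, Penk1, Tac1 and Crh. They were chosen by name, with earlier results of these data known, by matching the gene symbol of each probe to this list. The study that reported these arrays had found Npy and Vip lower after CHD5 depletion, so counts of called genes are no independent test. Each of the 10 genes had 1 probe among the 22523 probes and 21563 gene symbols of the array, and all 10 probes were detected on at least 1 array. Penk1 is named Penk in RefSeq. RNA came from primary rat cortical neurons, which were prepared from E18 embryos and cultured in Neural Basal Medium. Lentivirus was applied for 6 hours on day 1, and the cultures were collected for RNA on days 5, 9 and 12. One arm received a pLKO.1 lentivirus expressing an shRNA against CHD5, a chromatin remodeling enzyme of neurons, and the control arm received a pLKO.1 lentivirus with a control shRNA, so that both arms were infected. Each of the 6 groups had 3 arrays, labelled a, b and c, which gave 18 arrays in all. A single CHD5 shRNA was used on the arrays. No probe for Chd5 was analysed here, so its loss on these arrays was not checked here. The study reported less CHD5 protein and mRNA in neurons given CHD5 shRNA. It also reported Npy and Vip lower by quantitative PCR in independent samples, with a different shRNA among the repeats. Nothing says whether the array replicates were separate cultures, so the p-values measure the spread between these samples, which may be technical.

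Neuropeptides are cut from larger precursor proteins, stored in dense-core vesicles and released to act mostly on G protein-coupled receptors. In cortex, Sst, Npy, Vip and Cort mark subsets of inhibitory interneurons, Cck is made by both interneurons and excitatory cells, and Adcyap1, the precursor of the peptide PACAP, is made mainly by excitatory neurons. Several of these genes respond to neuronal activity through cAMP and the transcription factor CREB, which binds the cAMP response element.

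The levels below are fluorescence intensities of a probe on a log2 scale, rescaled so that every array had the same mean and spread, and they can be compared between arrays but not between probes. A probe was detected where its deposited detection p-value was at most 0.02, and 11079 probes passed on at least 1 array. A difference was called where its Benjamini-Hochberg adjusted p from limma, fitted on all 11079 probes, was under 0.05. An exact permutation test of 3 against 3 arrays cannot give a two-sided p below 0.1. One control array of day 9, replicate b, stood apart, with a mean signal of 135 against 400.2 to 789 on the other 17 arrays and 7047 detected probes against 8360 to 9931. The SD of its log2 signals was 1.11 against 1.72 to 2.02, so the rescaling to equal spread stretched its values more than those of other arrays. Npy had its lowest deposited signal there, 699, and its highest rescaled level, 12.39. Calls of the 10 genes that changed without it are given beside the results. The cultures carried the neuronal label in their RNA, since all 10 general neuronal genes with a probe, Tubb3 and Snap25 among them, were detected on every array of day 12. They also held RNA of glia, whose values are given beside the results.

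The probes of Npy and Cort are shown because Npy was the neuropeptide called lower with CHD5 shRNA and Cort had the largest change over the days. Both were 50 bases long, and their positions are those of the deposited file, whose genome build is not given in the sources used here. The Npy probe lay at chr4:78038993-78039042 on the plus strand and the Cort probe at chr5:166199186-166199235 on the minus strand, and both started at base 189 of the transcript.
Npy probe: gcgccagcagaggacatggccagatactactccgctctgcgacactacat
Cort probe: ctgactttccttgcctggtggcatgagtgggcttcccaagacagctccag

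RefSeq promoter sequences (GRCr8, from 250 bases before to 50 bases after the gene start) were matched for 6 of the genes, namely Npy, Vip, Sst, Cort, Adcyap1 and Tac1. The cAMP response element was searched on both strands as TGACGTCA, its shorter form TGACGTC, which every TGACGTCA contains, and the half-site TGACG, which both contain. TGACGTCA stood in the Sst promoter and in 1.83% of all 33469 promoters, and TGACGTC stood in the promoters of Sst and Vip and in 3.22% of all. TGACG stood in those of Sst, Vip, Tac1 and Cort and in 21.2% of all. The promoters of Npy and Adcyap1 held none of the 3 in these windows. The element of Vip began 97 bases before the gene start, and that of Sst just after it, within the 50 bases kept there. The stretches of 30 bases around the element are shown with the element in capitals, at chr11:90461537-90461566 for Sst and chr1:44470372-44470401 for Vip, both on the plus strand.
Sst promoter: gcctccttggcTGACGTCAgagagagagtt
Vip promoter: gatcaccactgTGACGTCtttcgaggagcc

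Of the 10 neuropeptides, Npy, Vip, Sst, Cck, Adcyap1, Pnoc and Penk1 were detected on all 18 arrays. Tac1, the precursor of substance P, was detected on 2 of 3 control arrays on day 9 and on 2 of 3 on day 12, and on all others. Cort, the precursor of cortistatin, was detected on all arrays of days 5 and 9 and on 1 of 3 arrays of each arm on day 12. Crh, the precursor of corticotropin-releasing hormone, was detected on all arrays of day 5, on 3 of 3 CHD5 shRNA arrays and 0 of 3 control arrays of day 9, and on 0 of 3 arrays of either arm on day 12.

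**Figure D1:**
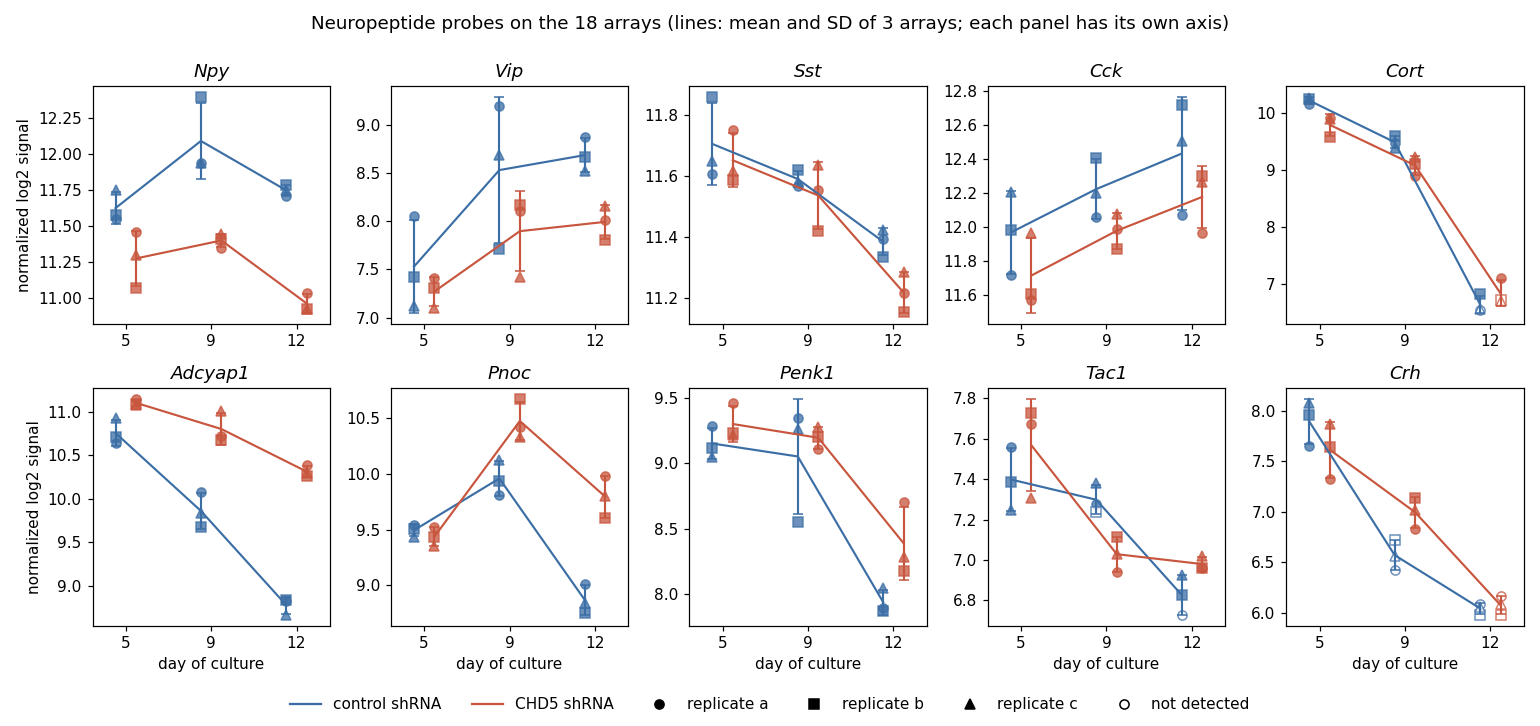
Normalized log2 signal of each neuropeptide probe (vertical axis, own scale per panel) against day of culture for control shRNA (blue) and CHD5 shRNA (red), with 1 point per array, open where the probe was not detected, and lines joining the means with the SD of 3 arrays. Npy lay below control and Adcyap1 above it on each day, Pnoc parted from control after day 5, and Cort fell in both arms to levels near the detection limit at day 12.

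With CHD5 shRNA, Npy was lower and Adcyap1 and Pnoc were higher than control on days 9 and 12. On day 5 none of the 10 genes was called, against 0.0451% of all probes called higher and 0.126% called lower. Before adjustment 3 genes had a p under 0.05, against 5.66% of all probes, and the arms did not overlap for 3 genes, Npy and Cort lower and Adcyap1 higher, against 11.0% of all probes. On day 9, 3 of the 10 were called, 2 higher and 1 lower, against 3.65% and 2.25% of all probes. On day 12 the same 3 genes were called, again 2 higher and 1 lower, against 2.23% and 3.24% of all probes. The arms did not overlap for 6 genes on day 9 and for 7 on day 12, against 20.6% and 38.2% of all probes. The median difference of the 10 genes was -0.15 on day 9 and 0.09 on day 12, and that of all probes was -0.02 and 0.01. Fewer cells of a type and less RNA per cell cannot be told apart in these bulk samples.

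**Figure D2:**
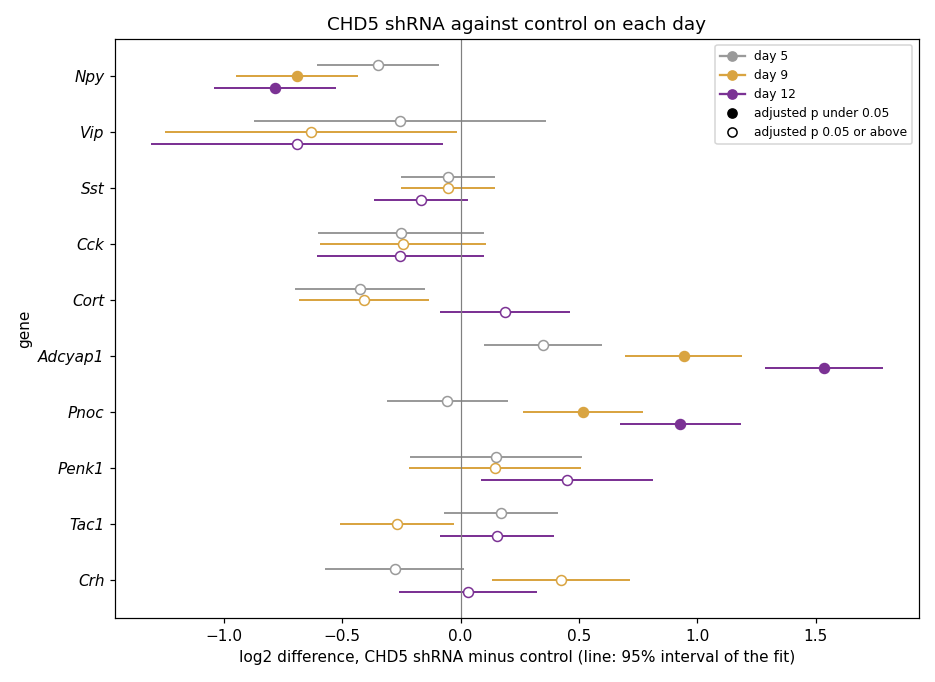
Log2 difference of CHD5 shRNA minus control (horizontal axis) for each gene on days 5, 9 and 12, with lines for the 95% interval of the limma fit and filled points where the adjusted p was under 0.05. Filled points stand below 0 for Npy and above 0 for Adcyap1 and Pnoc on days 9 and 12.

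Npy, the precursor of neuropeptide Y, an inhibitory peptide of interneurons, was 11.54, 11.58 and 11.75 on the day 5 control arrays a, b and c and 11.45, 11.07 and 11.29 with CHD5 shRNA. On day 9 it was 11.94, 12.39 and 11.94 in control and 11.35, 11.41 and 11.44 with CHD5 shRNA. On day 12 it was 11.71, 11.79 and 11.75 in control and 11.03, 10.92 and 10.93 with CHD5 shRNA. Every CHD5 shRNA array thus lay below every control array of its day. The log2 difference was -0.35 ± 0.12 (SE, n = 3 arrays a group) on day 5 (limma adjusted p = 0.476), -0.69 ± 0.12 on day 9 (adjusted p = 0.00355) and -0.78 ± 0.12 on day 12 (adjusted p = 0.000762). Without the day 9 control array b the day 9 difference was -0.55 (adjusted p = 0.00148). Centring the arrays on their medians without equalizing their spread ended both calls, with -0.30 on day 9 (adjusted p = 0.666) and -0.85 on day 12 (adjusted p = 0.115), and a fit of the day 9 arrays alone ended that of day 9 (adjusted p = 0.272). In the order of the group means, day 9 control was highest and day 12 CHD5 shRNA lowest, the day 12 and day 5 control groups overlapped, and so did the day 9 and day 5 CHD5 shRNA groups.

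Adcyap1 had the largest difference of the 10 genes on day 12 in the fit reported and under all 28 alternatives. On day 9 it was also the largest, except without the day 9 control array b, where Vip was (-1.07), and with neqc, a background-correcting normalization, where Crh was (1.11). Adcyap1 was 10.64, 10.71 and 10.92 in control and 11.14, 11.09 and 11.07 with CHD5 shRNA on day 5. On day 9 it was 10.08, 9.67 and 9.83 in control and 10.73, 10.67 and 11.01 with CHD5 shRNA. On day 12 it was 8.82, 8.84 and 8.66 in control and 10.38, 10.26 and 10.29 with CHD5 shRNA. The arms did not overlap on any day, and the gap widened as the control level fell. The differences were 0.35 ± 0.12 on day 5 (limma adjusted p = 0.443), 0.94 ± 0.12 on day 9 (adjusted p = 0.000358) and 1.54 ± 0.12 on day 12 (adjusted p = 4.8e-07), the last a 2.9-fold difference. Without the day 9 control array b the day 9 difference was 0.87 (adjusted p = 7.2e-05). The call of day 12 held under all 28 alternatives, with values from 1.48 to 1.72, and that of day 9 was lost in a fit of the 6 day 9 arrays alone (adjusted p = 0.234). The day 12 CHD5 shRNA arrays lay between the control arrays of day 5 and day 9, overlapping neither, and the day 9 CHD5 shRNA and day 5 control groups overlapped.

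Pnoc, the precursor of nociceptin, an opioid-related peptide, did not separate the arms on day 5, with 9.54, 9.50 and 9.44 in control and 9.53, 9.43 and 9.35 with CHD5 shRNA. On day 9 it was 9.81, 9.94 and 10.13 in control and 10.42, 10.67 and 10.34 with CHD5 shRNA. On day 12 it was 9.01, 8.75 and 8.84 in control and 9.98, 9.60 and 9.80 with CHD5 shRNA. All CHD5 shRNA arrays of days 9 and 12 lay above the control arrays of their day. The difference was 0.52 ± 0.12 on day 9 (limma adjusted p = 0.0171) and 0.93 ± 0.12 on day 12 (adjusted p = 0.00017), or 1.43-fold and 1.9-fold. The day 12 call held under all 28 alternatives. The day 9 call was lost under 7 of them, among them without CHD5 shRNA replicate a (0.54, adjusted p = 0.0519) or b (0.42, adjusted p = 0.0682), and was kept without the day 9 control array b (0.52, adjusted p = 0.0122).

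The widening of the difference was itself tested. From day 5 to 12 the CHD5 shRNA difference increased by 1.19 ± 0.16 for Adcyap1 (limma adjusted p = 0.00405) and by 0.98 ± 0.17 for Pnoc (adjusted p = 0.0187), which made 2 of the 10 genes called against 0.153% of all probes. For Npy the change was -0.44 ± 0.17 (adjusted p = 0.53). The call of Pnoc was lost without control replicate a or b or CHD5 shRNA replicate b or c of day 5, and without control replicate b or c or CHD5 shRNA replicate a or c of day 12, with adjusted p from 0.0551 to 0.0907. Leaving out single arrays did not end that of Adcyap1, while median centring ended both calls (1.14 with adjusted p = 0.389 and 0.97 with adjusted p = 0.548) and keeping all probes ended that of Pnoc (adjusted p = 0.0559). From day 5 to 9 and from day 9 to 12 none of the 10 genes was called, against 0% of all probes in either. Before adjustment 4 of them had a p under 0.05 in each, against 7.30% and 2.36% of all probes.

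The other interneuron peptides were not called between the arms. Vip, the precursor of vasoactive intestinal peptide, was 9.20, 7.71 and 8.69 in control and 8.11, 8.17 and 7.42 with CHD5 shRNA on day 9, where array b is the low control value. Its difference of -0.63 ± 0.29 (limma adjusted p = 0.229) was -1.07 and called without that array (adjusted p = 0.00604). On day 12 Vip was 8.87, 8.66 and 8.52 in control and 8.01, 7.81 and 8.16 with CHD5 shRNA, without overlap (-0.69 ± 0.29, adjusted p = 0.228, and -0.71 with adjusted p = 0.0294 without the day 9 control array b). Sst, the precursor of somatostatin, differed by -0.05 ± 0.09, -0.05 ± 0.09 and -0.17 ± 0.09 on days 5, 9 and 12, with 95% intervals from -0.25 to 0.14, -0.25 to 0.14 and -0.36 to 0.03. Cck, the precursor of cholecystokinin, differed by -0.25, -0.24 and -0.25 with an SE of 0.16 each, and its arms overlapped on every day. Cort differed by -0.43 ± 0.13 on day 5 (adjusted p = 0.336), -0.41 ± 0.13 on day 9 (adjusted p = 0.0695) and 0.19 ± 0.13 on day 12 (adjusted p = 0.569), where 1 of 3 arrays of each arm detected it.

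Among the remaining genes, Penk1, the precursor of the enkephalins, was 7.90, 7.87 and 8.05 in control and 8.70, 8.17 and 8.28 with CHD5 shRNA on day 12. The arms did not overlap, and the difference of 0.45 ± 0.17 was not called (limma adjusted p = 0.166) but was called without the day 9 control array b (0.46, adjusted p = 0.0106). Crh on day 9 was 6.43, 6.72 and 6.56 on the control arrays, none of them detected, and 6.83, 7.13 and 7.02 with CHD5 shRNA. Set against the lowest detected signal of each control array, Crh was at least 1.1-fold higher with CHD5 shRNA (adjusted p of the fit = 0.0773, and 0.0246 without the day 9 control array b). Tac1 differed by -0.27 ± 0.11 on day 9 (adjusted p = 0.178) and 0.15 ± 0.11 on day 12 (adjusted p = 0.614). On each of these days 2 of 3 control arrays detected it.

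From day 9 to 12 and from day 5 to 12 more of the 10 genes were called lower than higher in both arms. From day 5 to 9 this held with CHD5 shRNA only, and in control as many rose as fell. In control cultures 6 genes were called from day 5 to 9, Npy, Vip and Pnoc higher and Adcyap1, Crh and Cort lower, against 9.18% of all probes higher and 12.8% lower, and the same 6 were called without the day 9 control array b. The call of Vip was lost without control replicate b or c of day 5 or control replicate a or c of day 9 (adjusted p from 0.0521 to 0.0775). From day 9 to 12 the control level of 6 genes fell, Adcyap1, Pnoc, Penk1, Tac1, Crh and Cort, against 1.21% of all probes lower, and none rose, against 2.95%. Without the day 9 control array b 5 of the 6 were called. The one lost was Crh (adjusted p = 0.0596), which was undetected on both days, has no fold there and lost its call in 14 of 28 alternatives, among them without each control array of day 12. Tac1 lost its call in 7 of 28, among them without control replicate c of day 9 or control replicate a or b of day 12 (adjusted p from 0.0696 to 0.128). From day 5 to 12 in control, 9 were called, Vip and Cck higher and 7 lower, against 11.1% and 12.5% of all probes. Cck stood at the threshold (0.46 ± 0.16, limma adjusted p = 0.0496), its groups overlapped, and its call was lost in 19 of 28 alternatives. When single arrays were left out, it was kept only without control replicate c or CHD5 shRNA replicate c of day 5, control replicate a or b of day 9, or control replicate a of day 12.

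With CHD5 shRNA, 4 genes were called from day 5 to 9, Pnoc higher and Tac1, Crh and Cort lower, against 4.61% and 4.72% of all probes. Leaving out CHD5 shRNA replicate a of day 9 ended the call of Crh (adjusted p = 0.0547). From day 9 to 12, Adcyap1, Pnoc, Penk1, Crh and Cort fell and none rose, against 0.415% of all probes lower and 0.957% higher. The call of Adcyap1 (-0.49 ± 0.12, limma adjusted p = 0.042) was lost in 17 of 28 alternatives. When single arrays were left out, it was kept only without control replicate a or c of day 5 or control replicate a or b of day 9. The call of Penk1 (-0.81 ± 0.17, adjusted p = 0.0188) was lost in 7 of 28, among them without each CHD5 shRNA array of day 9 or CHD5 shRNA replicate b or c of day 12. From day 5 to 12, 7 were called, Pnoc higher and Sst, Adcyap1, Penk1, Tac1, Crh and Cort lower, against 8.46% and 8.56%. Without the day 9 control array b these 3 counts were 6, with Vip and Adcyap1 added, 7, with Npy and Sst added, and 10. Calls over all probes rose too, from 1034 to 2809, from 152 to 544 and from 1885 to 3503.

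**Figure D3:**
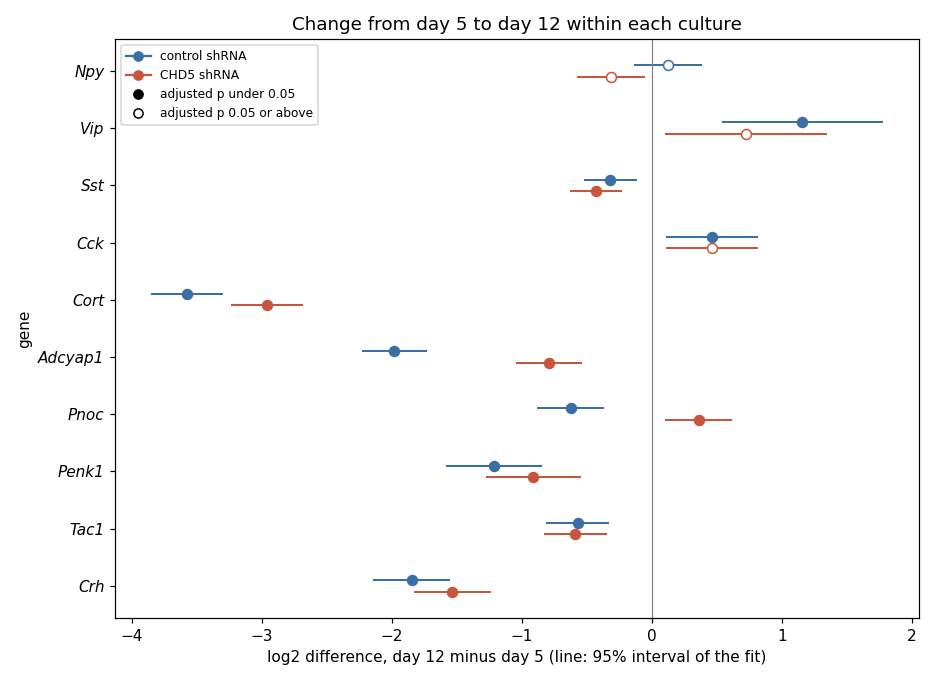
Log2 difference of day 12 minus day 5 (horizontal axis) for each gene in control shRNA (blue) and CHD5 shRNA (red) cultures, with lines for the 95% interval of the limma fit and filled points where the adjusted p was under 0.05. Cort fell furthest in both arms, and Pnoc fell in control and rose with CHD5 shRNA.

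Cort, whose product resembles somatostatin, had the largest change over the days. Its control arrays read 10.14, 10.24 and 10.26 on day 5, 9.48, 9.59 and 9.38 on day 9 and 6.54, 6.81 and 6.56 on day 12. With CHD5 shRNA it read 9.90, 9.57 and 9.89, then 8.89, 9.10 and 9.22, then 7.09, 6.70 and 6.69. Every day 12 array lay below every day 9 array of its arm. Since 1 of 3 arrays of each arm detected it on day 12, its day 12 level was set no lower than the lowest detected signal of each array. Cort was then at least 10.9-fold lower on day 12 than on day 5 in control (limma adjusted p of the fit = 1.7e-12) and at least 7.49-fold lower with CHD5 shRNA (adjusted p = 5.4e-11). Sst fell by 0.32 ± 0.09 in control (adjusted p = 0.0162) and fell by 0.43 ± 0.09 with CHD5 shRNA (adjusted p = 0.00283). Leaving out control replicate b of day 5 or of day 12 ended the former call (adjusted p from 0.064 to 0.102).

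Adcyap1 fell by 1.98 ± 0.12 from day 5 to 12 in control (3.94-fold, limma adjusted p = 6.4e-10) and fell by 0.79 ± 0.12 with CHD5 shRNA (1.73-fold, adjusted p = 9.4e-05). Pnoc fell by 0.63 ± 0.12 in control (adjusted p = 0.000738) and rose by 0.36 ± 0.12 with CHD5 shRNA (adjusted p = 0.0458). The rise was lost in 12 of 28 alternatives, among them without control replicate b or any CHD5 shRNA array of day 5, CHD5 shRNA replicate a of day 9, or control replicate b or c or CHD5 shRNA replicate a or c of day 12 (adjusted p from 0.0526 to 0.217). Crh, which in control was detected on day 5 alone, was at least 2.22-fold lower on day 12 there (adjusted p = 1.1e-08) and at least 1.8-fold lower with CHD5 shRNA (adjusted p = 2.8e-07). Vip rose by 1.16 ± 0.29 in control (adjusted p = 0.00709) and differed by 0.72 ± 0.29 with CHD5 shRNA (adjusted p = 0.104).

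Of 11 detected receptors and binding proteins of these peptides, 0 were called between the arms on days 5 and 9 and 2 were higher with CHD5 shRNA on day 12. They were Npy1r, a receptor of neuropeptide Y, with 0.60 ± 0.16 (limma adjusted p = 0.0291), and Sstr1, a receptor of somatostatin and cortistatin, with 0.86 ± 0.16 (adjusted p = 0.00344). Adcyap1r1, the receptor of PACAP, differed by -0.22 (adjusted p = 0.473), and Oprl1, the nociceptin receptor, by -0.10 (adjusted p = 0.69). From day 5 to 12 in control 5 of the 11 were called, 2 higher and 3 lower. The 2 that rose were Adcyap1r1 by 0.83 (adjusted p = 0.000102) and Oprl1 by 0.66 (adjusted p = 1.7e-05), and the others were Npy1r, which fell by 1.19 (adjusted p = 1.6e-05), Sstr2, a somatostatin receptor, which fell by 0.75 (adjusted p = 0.00525), and Crhbp, the binding protein of corticotropin-releasing hormone, which fell by 1.05 (adjusted p = 0.000277). Of 16 detected genes of peptide processing and dense-core vesicles, Ptprn, a vesicle membrane protein, was higher on day 9 (0.44 ± 0.11, adjusted p = 0.0213) and on day 12 (0.41 ± 0.11, adjusted p = 0.0315). On day 12 Scg2, a secretogranin detected on 1 of 3 control and 3 of 3 CHD5 shRNA arrays, was also higher (0.65 ± 0.15, adjusted p = 0.0183), and Cpd, a carboxypeptidase, was lower (-0.71 ± 0.15, adjusted p = 0.00655). None of 18 other neuropeptide precursors, each detected on at least 1 array, was called between the arms on any day. On day 12 only 4 of them were detected on all 3 arrays of each arm. On that day 11 were detected on 0 control arrays and 10 on 0 CHD5 shRNA arrays, so most of them were at background there. When the day 9 control array b was left out, Crhbp was also lower on all 3 days, Cpd was also lower on days 5 and 9, Syt4 was higher on day 9 and Chga on day 12, and 1 precursor was called on each of days 9 and 12, Nts lower and Nppc higher.

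Markers of other cells moved with the same comparisons. Of 15 detected astrocyte markers, 11 were lower with CHD5 shRNA on day 9 and 11 on day 12, with a median difference of -0.84 on day 12, and none was higher. With the day 9 control array b left out, these counts were 12 and 13, with 3 lower on day 5, where 0 had been called. Their summed normalized signal on day 12 ran from 60737 to 65853 in control and from 33256 to 35470 with CHD5 shRNA, and all 15 were detected on all arrays of that day. On day 9 it ran from 35494 to 129925 in control, the highest being array b, and from 20493 to 26173 with CHD5 shRNA. The rescaling stretched array b, so its sum is not read as more astrocyte RNA. In day 9 control the sum of general neuronal genes ran from 43796 to 234305. That of oligodendrocyte markers ran from 13146 to 37021, and that of interneuron genes from 20488 to 22459. All 15 rose from day 5 to 12 in both arms. Cnp, an oligodendrocyte gene, was lower on days 9 and 12, and of 6 detected fibroblast genes, 1, 4 and 2 were lower on days 5, 9 and 12, and 2, 4 and 2 without that array. The 2 of day 12 were Dcn, detected on 0 CHD5 shRNA and 3 control arrays, and Lum, on 0 and 1. On day 9 Dcn, also among those called, was detected on 0 CHD5 shRNA and 2 control arrays. None of 3 microglia and 2 endothelial markers, each detected on at least 1 array, was called. No microglia marker was detected on all 3 arrays of any group. On days 9 and 12 all 3 were detected on 0 CHD5 shRNA arrays. Of 10 general neuronal genes, Tubb3 and Uchl1 were higher on days 9 and 12. Among the interneuron genes, Satb1 was higher on day 9, and on day 12 Reln was higher and Calb2 was lower. Of 7 detected excitatory neuron genes, Slc17a6 was higher on day 9. Of 15 detected immediate early and CREB-responsive genes, Nr4a3 and Bdnf were higher on day 9 and Bdnf and Dusp1 on day 12. When the day 9 control array b was left out, the call of Nr4a3 was on day 12 and not on day 9, and on day 12 Crem, Slc17a6 and Syn1 were called higher and Slc17a7 lower. Dlx1 and Htr3a, both interneuron genes, were then lower on days 9 and 12. The part of these markers in the neuropeptide results was not tested.

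Over the 18 arrays, which share their groups and days, the genes most like the called neuropeptides were found by Pearson correlation among 9103 probes. For Npy they were Tmed2 (0.92), Arl1 (0.88) and Gpr56 (0.88). For Adcyap1 they were Tacstd1 (0.96), PVR (0.95) and RGD1565844_predicted (0.95), and for Pnoc they were Tmhs (0.92), Crtac1 (0.89) and Gchfr (0.83).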

How the data were processed

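The deposited signal intensities are bead means per probe on Illumina Rat Ref-12 arrays, read out by the authors in GenomeStudio, with neither normalization nor subtraction of background. The detection p-value of each probe was deposited beside its intensity. The 11079 of 22523 probes that reached a detection p-value of 0.02 or lower on any array were kept. Their log2 intensities were Z-transformed per array, as in the study's methods, and brought back to log2 units with the average SD over arrays. limma 3.58.1 in R 4.3.3 (lmFit and eBayes) was fitted to 6 groups of 3 arrays, with Benjamini-Hochberg adjustment within a contrast over all kept probes. The scripts were tested on simulated data. The second measurements of the 6 replicate a samples entered only an alternative. All 10 members are named, with the called genes of each list, of which some are not reported here, and the 3 genes most correlated with a called member. Members and lists were chosen with earlier results of these data known. Same-lettered arrays deviated together on day 5 (r from 0.17 to 0.38), not on every pair of day 9 (-0.20 to 0.43) or day 12 (0.01 to 0.15). Alternatives were other normalizations, filters, fits, replicate blocks and leaving out each array. The number of arrays limits the precision.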

Additional observations from a re-analysis of the deposited data

Results flagged for a closer look

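The CHD5 shRNA difference of Adcyap1 was larger on day 12 than on day 5 by 1.19, and that of Pnoc by 0.98, by limma's test of the difference between the days (adjusted p = 0.00405 and 0.0187).

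Tac1 lay lower with CHD5 shRNA than on every control array on day 9 (-0.27) and higher than on every control array on day 12 (0.15). The control array b of day 9 did not detect Tac1 and stood at 7.24 after the rescaling that stretched its values. Control array a of day 12, at 6.73, did not detect it either. The test of the change between these days gave 0.42 ± 0.16 (limma adjusted p = 0.994), so the change was not called.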

How the results depend on the processing

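Of 3360 recomputed values of single genes, 3095 kept their direction and their side of the threshold, 123 lost a call, 53 gained one and 89 turned their sign. Counts of called genes between the arms on day 9 were 3, and became 1 with median centring, 0 with the day 9 arrays alone, 5 with a replicate block by day and letter (4 with a block by letter, the genes added being Crh, with adjusted p = 0.0393 and 0.0498, and, in the former, Cort with 0.0465) and 2 to 5 when single arrays were left out, 5 being without the day 9 control array b. Over all probes the day 9 calls were 1176 without that array and 949 and 768 with the 2 blocks, against 653 in the fit reported. On day 12 the count of 3 became 5 with the day 12 arrays alone, 7 with array weights and 3 to 5 when single arrays were left out, 5 again being without the day 9 control array b. Over all probes the day 12 calls were 2612 with the day 12 arrays alone, 3575 with array weights and 1444 without that array, against 606. The 2 genes whose difference changed from day 5 to 12 became 0 with median centring, 1 with no detection filter and 1 to 2 with single arrays left out. In control, the 6 genes called from day 5 to 9 became 3, and the 6 from day 9 to 12 became 1, with the arrays of those groups alone. With CHD5 shRNA, the 4 from day 5 to 9 became 2 with median centring, and the 5 from day 9 to 12 became 2 with median centring, 3 with no detection filter and 3 to 7 with single arrays left out. The replicate block changed no other of these counts by over 1.5 times, and by letter it also ended the rise of Pnoc (adjusted p = 0.0513) and added Cck (0.0191) with CHD5 shRNA from day 5 to 12. The cause was not tested.

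Sign turns followed median centring for Sst (0.24) and Cck (0.13) between the arms on day 9. In control it turned Npy (-0.17), Cck (-0.39) and Tac1 (0.043) from day 5 to 9, Npy (0.17) and Sst (0.21) from day 9 to 12, and Npy (-0.0018) from day 5 to 12. With CHD5 shRNA it turned Npy (-0.11) and Cck (-0.0082) from day 5 to 9. Array weights turned Sst on day 5 (0.0023), Penk1 on day 9 (-0.075), Penk1 in control from day 5 to 9 (0.10) and Vip in control from day 9 to 12 (-0.10). Quantile normalization and neqc turned Penk1 from day 5 to 9 in control (0.12 and 0.14) and with CHD5 shRNA (0.011 and 0.013), and no detection filter turned Tac1 with CHD5 shRNA from day 9 to 12 (0.0097). Leaving out single arrays gave -0.46 to 0.0045 for Vip and -0.10 to 0.023 for Sst on day 5, -0.10 to 0.0042 for Sst and -0.11 to 0.29 for Penk1 on day 9, and -0.013 to 0.079 for Crh on day 12. It gave -0.25 to 0.16 for Penk1 in control from day 5 to 9, and -0.26 to 0.49 for Vip in control and -0.14 to 0.23 for Vip with CHD5 shRNA from day 9 to 12. For the change of the CHD5 shRNA difference from day 5 to 9, where Sst, Cck, Penk1 and Cort lay near 0, median centring turned Npy (0.064), Sst (0.29) and Penk1 (0.011), quantile normalization and neqc turned Sst (0.00071 and 0.00066) and Cort (-0.061 and -0.082), and the stricter detection filter turned Sst (0.011). No detection filter turned Cck (-0.054) and Penk1 (0.052), array weights turned Cck (-0.059), and averaging both measurements of replicate a turned Sst (0.0020) and Penk1 (0.0058). From day 5 to 12, quantile normalization, neqc and the stricter filter turned Cck (0.044, 0.045 and 0.0026), and neqc and array weights turned Tac1 (0.047 and 0.064). From day 9 to 12, array weights and averaging turned Vip (0.18 and 0.038), and no detection filter turned Cck (0.045). Leaving out single arrays gave, from day 5 to 9, -0.077 to 0.058 for Sst, -0.11 to 0.13 for Cck, -0.26 to 0.14 for Penk1 and -0.090 to 0.11 for Cort. It gave -0.18 to 0.14 for Cck and -0.15 to 0.061 for Tac1 from day 5 to 12, and -0.39 to 0.36 for Vip and -0.19 to 0.13 for Cck from day 9 to 12. Of all these, Npy in control from day 5 to 9 was called with its main value of 0.47, and none was called after the turn. Over all probes, the calls between the arms ranged from 2 to 77 on day 5 (19 in the fit reported), 65 to 995 on day 9 (653) and 162 to 3575 on day 12 (606) across the settings that keep every array, were 0 on day 9 with the arrays of that day alone, and ranged from 6 to 162, 98 to 1484 and 281 to 1444 when single arrays were left out.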
